A study of Mus musculus with 4 samples.

Results

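The genes described here are the matrix metalloproteases (MMPs), the ADAM and ADAMTS metalloproteases, the ADAMTS-like proteins (ADAMTSL) and the tissue inhibitors of metalloproteases (TIMPs) in C2C12, a single mouse line of myoblasts, which divide in growth medium and can be induced to fuse into myotubes. They were chosen by name: protein-coding genes of GENCODE M21 whose symbol is Mmp, Adam, Adamts, Adamtsl or Timp followed by a number. Of 51826 gene identifiers in the count table, 83 met this rule, of which 22 were MMP, 33 ADAM, 19 ADAMTS, 5 ADAMTSL and 4 TIMP genes. Mmp1a has a matching name but is annotated as a polymorphic pseudogene and was left out. RNA was sequenced from growing cells treated for 6 h with recombinant GDF10, a growth factor of the TGF-beta superfamily (2 libraries), or for 6 h with vehicle (2 libraries). The dose of GDF10 is not given in the labels, which call the libraries of a group biological replicates without saying what was prepared separately.

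MMPs are zinc proteases, secreted or held at the cell surface, that cut collagens and other matrix proteins. ADAMs are membrane proteins, many of which release the outer parts of growth factors, receptors and adhesion molecules, while ADAMTS proteases are secreted and cut proteoglycans or trim procollagens, and ADAMTSL proteins resemble the ADAMTS ancillary domains but lack the protease. TIMPs bind in the active site of these enzymes and block it. In skeletal muscle such proteases act on the basal lamina around the fibres, and ADAM12, ADAM19 and ADAM9, the meltrins, were described in myoblasts, where ADAM12 has been tied to cell fusion.

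The active site sets the proteases apart from the other members. Its coding bases are shown for some of the more abundant proteases, for Adam12 and, as a contrast, for Adamts1. Each stretch holds 11 codons from mm10, written 5′ to 3′ on the coding strand from GENCODE M21 transcripts, and the capitals mark the codons of the 3 zinc-binding histidines and of the catalytic glutamate, which directly follows the first histidine.
Mmp14 (chr14:54437627-54437659, plus strand): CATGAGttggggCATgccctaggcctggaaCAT
Mmp2 (chr8:92839279-92839311, plus strand): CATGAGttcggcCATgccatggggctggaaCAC
Mmp9 (chr2:164951133-164951165, plus strand): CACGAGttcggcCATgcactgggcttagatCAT
Mmp11 (chr10:75926931-75926963, minus strand): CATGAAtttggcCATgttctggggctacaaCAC
Adam9 (chr8:24990326-24990358, minus strand): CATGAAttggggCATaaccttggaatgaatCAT
Adam17 (chr12:21336732-21336764, minus strand): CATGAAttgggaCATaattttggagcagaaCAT
Adam12 (chr7:133961158-133961190, minus strand): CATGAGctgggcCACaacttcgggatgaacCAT
Adam19 (chr11:46125050-46125082, plus strand): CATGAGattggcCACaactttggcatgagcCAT
Adamts1 (chr16:85799191-85799545, minus strand): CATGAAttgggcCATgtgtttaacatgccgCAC
Of these stretches all lie within 1 coding exon except that of Adamts1, whose coordinates include an intron. Among sites not shown, that of Adam10 spans exons 9 and 10 and that of Adamts7 exons 7 and 8. The histidine and glutamate codons were found in the coding sequence of all 22 MMPs and all 19 ADAMTS genes, in 20 of the 33 ADAMs, and in no ADAMTSL or TIMP gene. A glycine codon stands between the second and the third of these histidines in all 22 MMPs, in those 20 ADAMs and in 13 ADAMTS genes. In the other ADAMTS genes its place is taken by an asparagine codon, as in Adamts1, or in Adamts8 by a serine codon. The 20 ADAMs with the site are called catalytic below, from this search of the sequence only.

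Total counts were 29944193 and 35057429 in the GDF10 libraries and 35597310 and 29641165 in the vehicle libraries. Levels are given as CPM, counts scaled by library size after TMM correction, and levels of different genes are compared as CPM per kb of the longest annotated transcript. The 83 genes took 0.375% and 0.392% of counts in the GDF10 libraries and 0.381% and 0.394% in the vehicle libraries. The labelled cell type was checked by its markers: Myod1 stood at 57.5 and 56.9 CPM with GDF10 and at 53.6 and 55.2 CPM with vehicle, and Des, Myf5, Cdh15 and Itga7 were also present, while Pax7 had 0 counts in all 4 libraries. One protocol label names longissimus dorsi as the source of the RNA. Of the 6 markers of mature muscle, Ckm had 148 and 181 counts with GDF10 and 178 and 131 with vehicle, Mb and Myh1 were also counted in all 4 libraries, and the fast myosin gene Myh4 had 0 counts with GDF10, and 4 and 0 with vehicle. That list summed to 7.61 and 10.07 CPM with GDF10 and to 8.45 and 9.49 CPM with vehicle. Of the macrophage and neutrophil markers, whose cells are known to make Mmp8, Mmp9 and Mmp12, Adgre1 and S100a9 had 0 counts in all 4 libraries, Ptprc, Itgam and S100a8 at most 2, Cd68 had 81 and 90 counts with GDF10 and 122 and 88 with vehicle, and Csf1r had 33 and 60 with GDF10 and 51 and 44 with vehicle. The list of 7 summed to 3.87 and 4.36 CPM with GDF10 and to 4.90 and 4.46 CPM with vehicle. The fibroblast markers Col1a1, Col1a2 and Pdgfra were well counted, with 4230 and 4611 CPM with GDF10 over the list of 5 and 4195 and 4386 CPM with vehicle. That list also holds Lum and Dpt, and 4 of the 5 had enough counts to be tested. The endothelial markers summed to 2.30 and 2.87 CPM with GDF10 and 2.44 and 2.16 CPM with vehicle. For the epithelial markers the sums were 6.07 and 6.31 CPM with GDF10 and 3.47 and 4.76 CPM with vehicle. Only 1 of these 4 markers was tested. Its log2 fold change was 0.59, with an edgeR unadjusted p under 0.05, and it did not pass after adjustment. In bulk RNA, fewer cells of a type and less RNA per cell cannot be told apart.

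Of the 83 genes, 56 had a count in at least 1 library and 45 had enough counts to enter the test of GDF10 against vehicle. By mean CPM over the 4 libraries, 8 members stood at 100 CPM or more, 19 from 10 to under 100, 8 from 1 to under 10, and the other 10 tested members under 1 CPM. The inhibitors led. Per kb, Timp1 and Timp2 together made up 67.3% and 66.2% of the summed level of the whole set in the GDF10 libraries and 66.7% and 67.6% in the vehicle libraries, and with the membrane-anchored protease gene Mmp14 they made up 75.2% and 74.1% with GDF10 and 74.6% and 74.8% with vehicle.

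Timp1 (chromosome X, 20870166 to 20874735), a secreted inhibitor of most MMPs, was first at 629 ± 39.4 CPM per kb (mean ± SD over the 4 libraries). Its CPM was 532 and 537 with GDF10 and 544 and 607 with vehicle. Timp2 (chromosome 11, 118301069 to 118355740), which inhibits MMP2 and also takes part in its activation by MMP14, was next at 355 ± 10.9 CPM per kb. Timp2 had 1331 and 1368 CPM with GDF10 and 1279 and 1292 CPM with vehicle, more reads than Timp1 from a longer transcript. Timp3, which binds to the matrix and inhibits ADAM17 and several ADAMTS proteases, had 14.3 ± 2.95 CPM per kb. Timp4, known from heart and other differentiated tissue, had 9 and 12 counts with GDF10 and 18 and 13 with vehicle. The 4 inhibitors thus ran from first place to rank 43 of the 45 tested members.

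Among MMPs, Mmp14 (chromosome 14, 54431612 to 54445364), the membrane-type collagenase that activates pro-MMP2, was highest at 113 ± 2.95 CPM per kb. It had 362 and 378 CPM with GDF10 and 369 and 356 CPM with vehicle. Mmp14 alone made up 50.3% and 50.5% of the summed MMP level per kb with GDF10 and 53.7% and 51.3% with vehicle. Per kb of all its annotated exons joined, Mmp14 stood lower, at 61.5 CPM, and made up 38.2% and 38.4% of the MMP sum with GDF10 and 41.3% and 39.0% with vehicle. Mmp11, a stromelysin that is activated inside the cell by furin, followed at 31.5 ± 2.93 CPM per kb, then the gelatinase Mmp2 at 28.9 ± 1.42 and the other gelatinase Mmp9 at 20.9 ± 2.19. The ranges of Mmp11 and Mmp2 over the 4 libraries overlapped, and both lay below that of Mmp14. Mmp19 and Mmp28 were also present. The interstitial collagenase Mmp13 had 144 and 135 counts with GDF10 and 155 and 139 with vehicle, and Mmp3, Mmp8, Mmp10, Mmp17 and Mmp23 had under 1 CPM on average. The other membrane-type genes were far below Mmp14: Mmp15 stood at 0.773 ± 0.0557 CPM per kb, Mmp24 had 6 and 7 counts with GDF10 and 7 and 0 with vehicle, and Mmp25 had 0 in all 4 libraries.

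The catalytic ADAMs came next. Adam9 was the highest at 34.9 ± 7.83 CPM per kb, followed by Adam17, which releases tumour necrosis factor and ligands of the epidermal growth factor receptor, at 25.8 ± 1.59. Adam10, which cuts Notch receptors, had 24.2 ± 1.43 CPM per kb, Adam15 21.04 ± 0.762, Adam19 20.3 ± 1.82 and Adam12 8.71 ± 1.124. From Adam17 down to Adam19 the order of levels was Adam17, Adam10, Adamts7, Adamtsl5, Adam15, Mmp9 and Adam19, and in this run each gene's range over the 4 libraries overlapped that of the next. Of the 20 catalytic ADAMs 11 had a count and 7 reached 10 CPM. Of the 13 without the site 6 had a count, and 1 reached 10 CPM: Adam23, which acts in adhesion and as a receptor for LGI proteins in the nervous system, had 24.7 and 23.4 CPM with GDF10 and 25.1 and 22.0 CPM with vehicle.

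Of the ADAMTS genes, Adamts7, whose protein cuts cartilage oligomeric matrix protein, was highest per kb at 23.6 ± 1.003 CPM. The procollagen N-propeptidase genes Adamts14 and Adamts2 stood at 14.2 ± 1.36 and 7.66 ± 0.514 CPM per kb, while Adamts3, the other gene of that kind, had 0 and 4 counts with GDF10 and 0 and 4 with vehicle. The proteoglycan-cutting enzyme genes Adamts4, Adamts1 and Adamts5 had 12.3 ± 1.35, 5.60 ± 0.441 and 2.84 ± 0.104 CPM per kb, and Adamts8, Adamts9, Adamts15 and Adamts20 had 0 counts in all 4 libraries. Of the ADAMTS-like genes, Adamtsl5 was highest at 22.4 ± 2.38 CPM per kb, near the level of Adamts7.

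**Figure D1:**
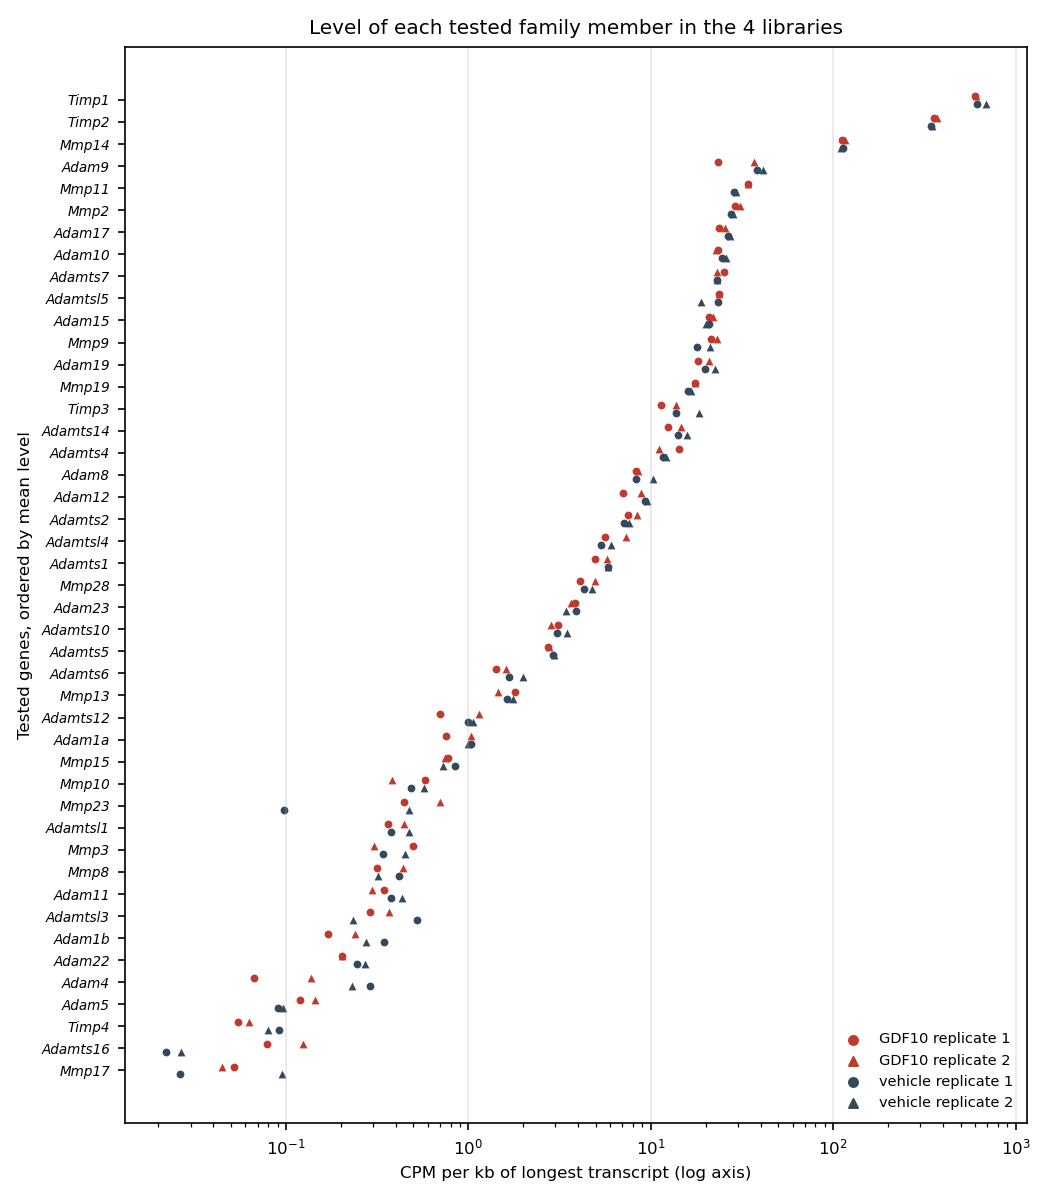
Level of each of the 45 tested genes in each library, as CPM per kb of the longest transcript on a log axis, ordered by the mean over the 4 libraries; circles are replicate 1 and triangles replicate 2. Timp1, Timp2 and Mmp14 stand apart at the top, and the points of the 2 groups lie close together for most genes above 1 CPM per kb.

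In all 4 libraries 27 members had 0 counts, which allows at most 0.0840 to 0.101 CPM per library at a limit of 3 counts (counting error only). These were the ADAMs Adam2, Adam3, Adam6a, Adam6b, Adam7, Adam18, Adam20, Adam24, Adam25, Adam26a, Adam26b, Adam28, Adam29, Adam30, Adam34 and Adam39, many of them known as testis genes, the MMPs Mmp1b, Mmp7, Mmp20, Mmp21 and Mmp25, and the ADAMTS genes Adamts8, Adamts9, Adamts15, Adamts18, Adamts19 and Adamts20. Mmp20 is known as the enamel protease and Mmp7 as an epithelial one. A further 11 had counts, at most 9 in any library, and did not enter the test: Mmp12, Mmp16, Mmp24, Mmp27, Adam21, Adam32, Adam33, Adamts3, Adamts13, Adamts17 and Adamtsl2. The nearest to the limit were Mmp24, Adam21, with 0 and 6 counts with GDF10 and 4 and 4 with vehicle, and Adam33, with 0 and 9 counts with GDF10 and 2 and 0 with vehicle. The smallest sum over the 4 libraries among tested members was 41 counts, against a largest sum of 20 among those not tested.

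Members lying within 200 kb of each other formed 11 neighbourhoods, of which 5 had 0 counts throughout. The MMP cluster on chromosome 9 (7272514 to 7699585) holds 9 members in the order Mmp13, Mmp12, Mmp1b, Mmp3, Mmp10, Mmp8, Mmp27, Mmp20 and Mmp7. Together they had 224 and 218 counts with GDF10 and 248 and 215 counts with vehicle, and most of these were Mmp13. The 4 tested genes of the cluster, Mmp13, Mmp3, Mmp10 and Mmp8, had overlapping groups. The more abundant MMPs, Mmp14, Mmp2, Mmp9, Mmp11 and Mmp19, lie elsewhere. On chromosome 8 (24602246 to 25016927), Adam9 had 2849 and 5179 counts with GDF10 and 5502 and 4941 with vehicle, whereas its neighbours Adam18 and Adam3 had 0 counts in all 4 libraries, Adam32 at most 3, and Adam5 10 and 14 with GDF10 and 9 and 8 with vehicle. A run of 4 catalytic ADAMs on the same chromosome, Adam24, Adam25, Adam20 and Adam39, had 0 counts throughout. On chromosome 16 (85793827 to 85901828), both genes of the pair Adamts1 and Adamts5 were present, whereas the pair Adamts15 and Adamts8 on chromosome 9 had 0 counts. Adam1b and Adam1a, neighbours on chromosome 5 whose coding sequences are 80.9% identical over 2257 aligned bases and whose active site stretches are the same, had 17 and 28 counts (Adam1b) and 108 and 173 counts (Adam1a) with GDF10, and 41 and 27 and 176 and 141 counts with vehicle; reads may have been split between them, and Adam1a shares 4779 exon bases with Gm42878 on the same strand.

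**Figure D2:**
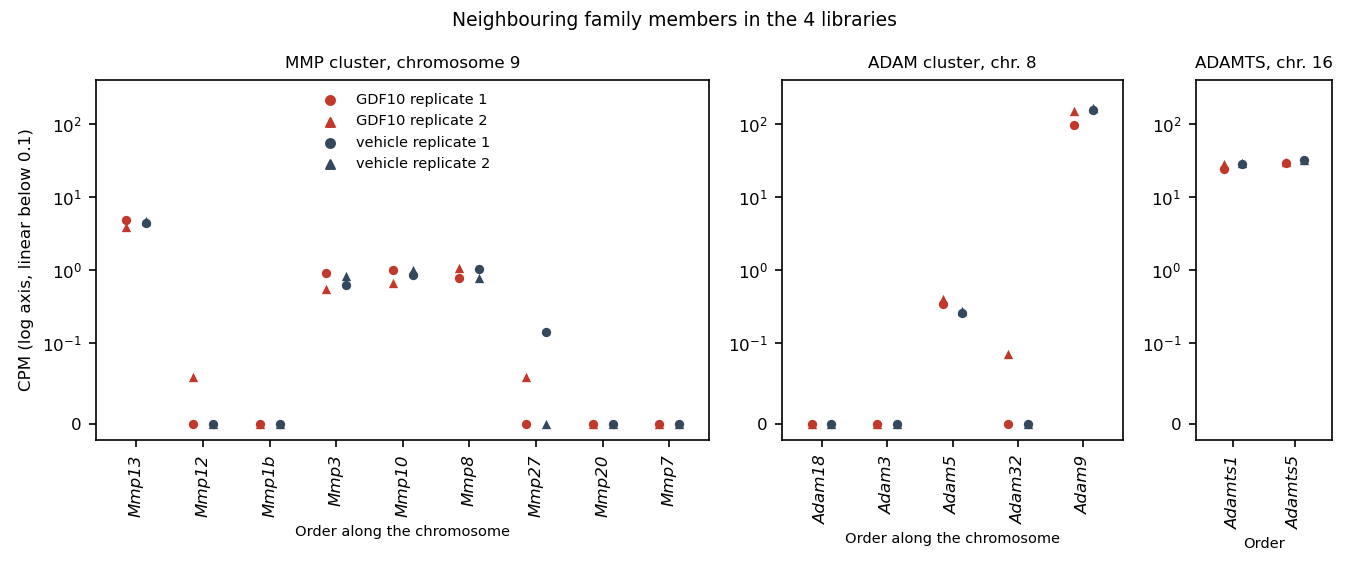
CPM of neighbouring members in order along the chromosome for the MMP cluster of chromosome 9, the ADAM cluster of chromosome 8 and the pair on chromosome 16, on a log axis that is linear below 0.1; each point is 1 library. Mmp13 and Adam9 are the highest of their clusters, while Adam18, Adam3, Mmp1b, Mmp20 and Mmp7 stand at 0 in all 4 libraries.

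The comparison of GDF10 with vehicle asked which of these transcripts differ after 6 h. None of the 45 tested members passed. By edgeR's quasi-likelihood test with Benjamini-Hochberg adjustment over all 15467 genes tested, 0 of the 45 had an adjusted p under 0.05, beside 25 of all genes, or 0.162%, of which 0.084% were higher and 0.0776% lower, and the smallest adjusted p of a member was 0.801. An unadjusted p under 0.05 was reached by 3 of the 45, beside 5.94% of all genes: Adamts16 and Mmp11 with positive log2 fold changes, beside 2.44%, and Adam4 with a negative one, beside 3.49%. DESeq2, which tested 56 members, and limma-voom also called 0, with 3 each at an unadjusted p under 0.05. With limma-voom these were again Adamts16, Mmp11 and Adam4. With DESeq2 they were Mmp11, Adam9 and Timp3, while Adamts16 (DESeq2 unadjusted p = 0.0694) and Adam4 (DESeq2 unadjusted p = 0.163) were above 0.05. For most members the interval of the fold change is narrow enough to bound it. The 95% interval of the fold change lay within 2-fold either way for 34 of the 45 and within 1.5-fold for 26, and among the 27 members of at least 10 CPM within 2-fold for 26 and within 1.5-fold for 24. Below 1 CPM it lay within 2-fold for 1 of 10.

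In 23 of the 45 the CPM ranges of the GDF10 and vehicle libraries did not overlap, beside 38.2% of all genes tested: 9 were higher with GDF10, beside 18.8%, and 14 lower, beside 19.4%. Log2 fold changes were negative in 27 of 45, beside 49.2% of all genes, with a median of −0.09 in the members and 0.0029 in all genes. Leaving out vehicle replicate 2 gave a members' median of −0.023, leaving out GDF10 replicate 1 gave −0.030, and leaving out vehicle replicate 1 gave −0.13. Without GDF10 replicate 2 the median was −0.11, over 44 tested members. The tested members have long transcripts, with a median of 4389 bases beside 3013 for all genes tested. Across 15431 genes the deviation of a library from the mean of the 4 had a Spearman correlation with transcript length of −0.36 in GDF10 replicate 1, 0.10 in GDF10 replicate 2, 0.12 in vehicle replicate 1 and 0.22 in vehicle replicate 2. With this trend removed, 23 of the 45 members had negative values and their median was −0.0080. With the trend on GC content removed instead, 27 were negative and the median was −0.080. The part of transcript length in the members' values was not tested further.

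The summed CPM of the 22 MMPs was 683 and 713 with GDF10 and 657 and 663 with vehicle. The summed CPM of the 33 ADAMs was 625 and 719 with GDF10 and 734 and 776 with vehicle. Neither pair of ranges overlapped, and no test was made on these sums. Among single genes tested, 38.2% had groups that did not overlap. The ADAMTSL sums, 125.3 and 132.9 with GDF10 and 124.7 and 107.2 with vehicle, did not overlap either. Those of the ADAMTS genes overlapped, at 400 and 403 with GDF10 and 394 and 414 with vehicle. So did the TIMP sums, at 1918 and 1971 with GDF10 and 1889 and 1986 with vehicle. Per kb, the summed TIMP level was 4.38 and 4.28 times the summed MMP level with GDF10 and 4.60 and 4.91 times with vehicle. Per kb of all annotated exons joined, that ratio was higher, at 5.95 and 5.83 with GDF10 and 6.34 and 6.70 with vehicle.

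**Figure D3:**
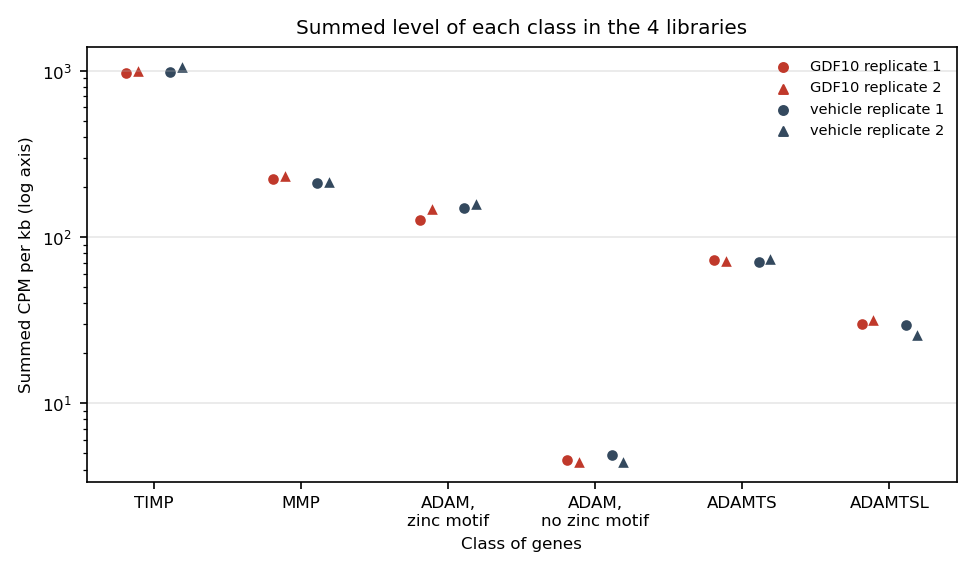
Summed CPM per kb of each class in each library, on a log axis; ADAMs are split by whether the zinc-binding codons were found. TIMPs are highest and ADAMs without the codons lowest in all 4 libraries, and within a class the GDF10 and vehicle points lie close together.

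Among the MMPs, Mmp11 had the lowest p. It stood at 77.9 CPM in each of the 2 GDF10 libraries and at 65.6 and 67.3 CPM in the vehicle libraries. Both GDF10 libraries lay above both vehicle libraries, but the log2 fold change, 0.23 ± 0.08 (standard error), did not pass (edgeR unadjusted p = 0.0215, adjusted p = 0.820). Mmp11 shares 155 exon bases with Chchd10 on the other strand, and the sum of their counts gave the same log2 fold change of 0.23. Mmp9 had 68.0 and 73.4 CPM with GDF10 and 56.7 and 66.7 CPM with vehicle, or 0.20 on the log2 scale (95% interval −0.05 to 0.44), with 0.084 without vehicle replicate 1 and 0.32 without vehicle replicate 2. The other gelatinase Mmp2 had 89.3 and 94.8 CPM with GDF10 and 84.3 and 87.5 CPM with vehicle (log2 fold change 0.10, interval −0.08 to 0.28). Mmp14, at 370.4 ± 11.4 CPM with GDF10 and 363 ± 9.09 CPM with vehicle (SD, n = 2 each), had overlapping groups and an interval of −0.13 to 0.19. Mmp23, a small membrane-anchored MMP, had 19 and 35 counts with GDF10 and 5 and 20 with vehicle, with a log2 fold change of 1.05 (interval −0.63 to 2.73). Without vehicle replicate 1 that value was 0.28, and without vehicle replicate 2 it was 2.52.

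Of the 14 tested ADAMs, both GDF10 libraries lay below both vehicle libraries in 8, beside 19.4% of all genes, namely Adam9, Adam10, Adam12, Adam17, Adam11, Adam1b, Adam22 and Adam4, and above them in Adam5. Adam12 had 54.3 and 67.9 CPM with GDF10 and 71.8 and 73.2 CPM with vehicle, or −0.25 ± 0.12 on the log2 scale (edgeR adjusted p = 0.825), and −0.14 with the transcript length trend removed. Adam10 had 108 and 104 CPM with GDF10 and 113 and 119 CPM with vehicle, and Adam17 had 106 and 114 CPM with GDF10 and 119 and 122 CPM with vehicle. Both differed by −0.13 on the log2 scale, with intervals of −0.31 to 0.04 for Adam10 and −0.31 to 0.05 for Adam17. With the transcript length trend removed, the log2 fold change was −0.093 for Adam10 and −0.095 for Adam17. With the GC trend removed instead, it was −0.054 for Adam10 and −0.085 for Adam17. Adam22, Adam1b and Adam4 had −0.35, −0.58 and −1.32, and −0.20, −0.55 and −1.22 with the length trend removed. Adam19, another meltrin, had overlapping groups at 116 and 133 CPM with GDF10 and 126 and 144 CPM with vehicle. Its log2 fold change was −0.12, and −0.022 with the length trend removed.

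Adam9 had the largest relative spread within the GDF10 group among the 13 highest members per kb, an SD of 31.1% of the mean, against 5.70% in the vehicle group. It had 95.1 and 149 CPM with GDF10 and 154 and 167 CPM with vehicle, so that GDF10 replicate 1 stood apart from the other 3 libraries. Its log2 fold change was −0.40 ± 0.25 (edgeR adjusted p = 0.848). Without GDF10 replicate 1 it was −0.11 (adjusted p = 0.991), and without GDF10 replicate 2 it was −0.75 and passed at an adjusted p of 0.00411 (edgeR); each of these fits has 1 GDF10 library, which is assumed to vary as the 2 vehicle libraries do. The ratio of Adam9 to Adam10 per kb was 1.002 in GDF10 replicate 1 and 1.62 in GDF10 replicate 2, against 1.54 and 1.59 in the vehicle libraries. With the transcript length trend removed the log2 fold change of Adam9 was −0.41.

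Of the 12 members of lowest p some were rarely counted. Adamts16 had 12 and 22 counts with GDF10 and 4 and 4 with vehicle, or 2.05 on the log2 scale with an interval of 0.59 to 3.50 (edgeR unadjusted p = 0.0125, adjusted p = 0.801). Adam4, a non-catalytic ADAM known from testis, had 5 and 12 counts with GDF10 and 26 and 17 with vehicle (log2 fold change −1.32, interval −2.58 to −0.06, adjusted p = 0.825). Adam1b and Adam22, a membrane protein of neurons without the zinc site, had log2 fold changes of −0.58 and −0.35, at adjusted p = 0.845 each. Of the ADAMTS genes at higher levels, Adamts6 had 10.9 and 12.4 CPM with GDF10 and 12.8 and 15.3 CPM with vehicle (log2 fold change −0.27, interval −0.63 to 0.09). Adamts7, Adamts2, Adamts1 and Adamts5 had log2 fold changes of 0.07, 0.11, −0.12 and −0.09, with standard errors of 0.08 to 0.11. Adamtsl5 had 97.6 and 97.0 CPM with GDF10 and 96.3 and 77.5 CPM with vehicle, where vehicle replicate 2 was the low library. Its log2 fold change was 0.16, and it was 0.016 with vehicle replicate 2 left out and 0.33 with vehicle replicate 1 left out.

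Among the inhibitors, Timp3 had 53.7 and 64.8 CPM with GDF10 and 65.0 and 87.0 CPM with vehicle. GDF10 replicate 2 and vehicle replicate 1 were nearly equal, and the log2 fold change, −0.36 ± 0.17, did not pass (adjusted p = 0.825); it was −0.13 without vehicle replicate 2 and −0.55 without vehicle replicate 1. Timp3 lies within Syn3 on the opposite strand and shares 1733 exon bases with it, but Syn3 had 5 and 2 counts with GDF10 and 4 and 0 with vehicle. On the log2 scale Timp1 differed by −0.11 (interval −0.29 to 0.07), and by −0.026 without vehicle replicate 2 and −0.18 without vehicle replicate 1. Timp2 differed by 0.07 (interval −0.08 to 0.22), and Timp4 by −0.54 (interval −1.70 to 0.61).

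**Figure D4:**
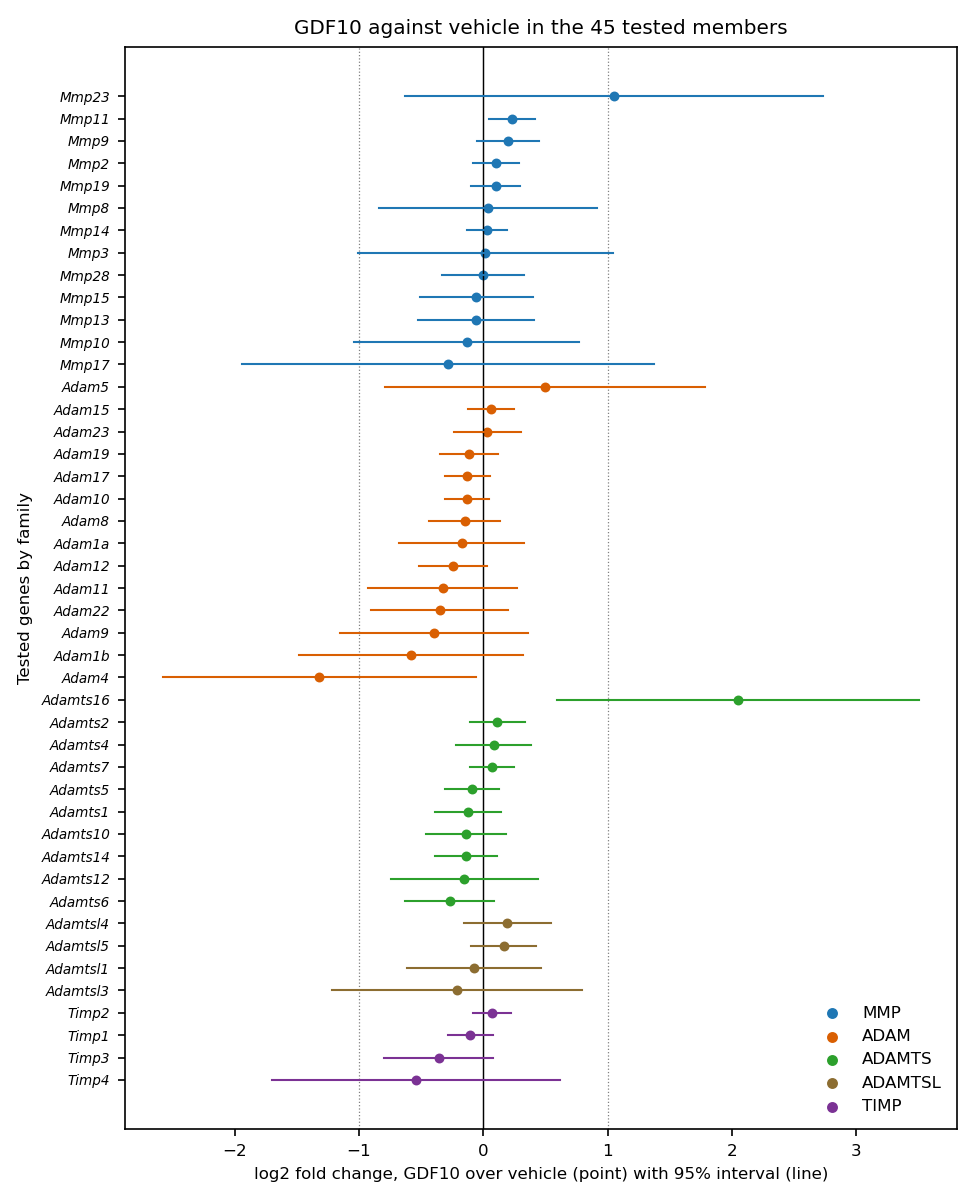
Log2 fold change of GDF10 over vehicle for each of the 45 tested genes, by family, with the 95% interval from edgeR; dotted lines mark 2-fold either way. The intervals of 34 genes lie between the dotted lines, and those of Mmp11, Adam4 and Adamts16 leave out 0 before adjustment.

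Proteins that process, carry or clear these enzymes were read from the same fit as a list of 29 partner genes, 23 of them tested. None passed by edgeR, with 0 at an unadjusted p under 0.05 and a median log2 fold change of 0.0099. Tspan17 and Tspan5, tetraspanins that escort ADAM10 to the cell surface, had log2 fold changes of 0.37 and 0.18, and Bsg, which encodes the MMP inducer basigin, 0.17 (adjusted p = 0.825 each). Bsg stood at 859 and 948 CPM with GDF10 and 781 and 829 CPM with vehicle. The membrane-bound MMP inhibitor gene Reck had 213 and 242 counts with GDF10 and 203 and 245 with vehicle, and Furin, which activates MMP11, MMP14 and many ADAMs, had 221 and 245 CPM with GDF10 and 226 and 230.2 CPM with vehicle. Of these, Reck and Furin had overlapping groups.

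Of 37 substrate genes 30 were tested and none passed by edgeR; 1 had an unadjusted p under 0.05, and the median log2 fold change was −0.08. That gene was Ereg, whose epidermal growth factor receptor ligand is released by ADAM17. Ereg had 23.7 and 29.4 CPM with GDF10 and 30.8 and 38.0 CPM with vehicle (log2 fold change −0.37, adjusted p = 0.825). Vcan, the versican gene, whose protein is cut by ADAMTS1, ADAMTS4 and ADAMTS5, had 89.4 and 124 CPM with GDF10 and 139.96 and 149 CPM with vehicle (log2 fold change −0.43, adjusted p = 0.825). Bgn, of the proteoglycan biglycan, differed by −0.16 on the log2 scale (edgeR adjusted p = 0.825). As with Adam9, Vcan was lowest in GDF10 replicate 1, and so were Lrp1, the endocytic receptor that clears MMPs, ADAMTS proteases and TIMPs, at 1629 and 2525 CPM with GDF10 and 2151 and 2395 CPM with vehicle, and Col4a1, of basement membrane collagen, at 278 and 478 CPM with GDF10 and 410.2 and 453 CPM with vehicle. Lrp1 and Col4a1 were singled out after their values were seen. GDF10 replicate 1 is also the library whose deviations had a Spearman correlation of −0.36 with transcript length across genes. Whether these low values share a cause was not tested. Cx3cl1, an ADAM10 and ADAM17 substrate that was singled out after its values were seen, had 1700 and 2141 counts with GDF10 and 1854 and 295 with vehicle, so that vehicle replicate 2 alone was low.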

How the data were processed

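For each of the 4 libraries the authors deposited raw read counts per gene. HISAT2 2.0, StringTie 1.3.3b, Trimmomatic 0.36, DESeq2 1.12.4, FastQC 0.11.2 and bedtools 2.26.0 are named, without roles, in the submitters' processing notes, with build mm10. How reads were assigned to genes, with which annotation and strand setting, is not given in the sources used here. So reads of the 12 tested members that share exon bases with another gene may be counted for either. Columns named Con were taken as vehicle, the only other group. Of 51826 identifiers 51633 were found in GENCODE M21, which gave symbols, transcripts and lengths. Genes were kept by filterByExpr, scaled by TMM and tested with edgeR 4.0.16 (R 4.3.3) by robust quasi-likelihood fits without covariates, with Benjamini-Hochberg adjustment over 15467 genes and a threshold of 0.05. The F statistic and fold change gave standard errors and 95% intervals. The p-values measure only the spread between these 4 libraries. The main test and some of the alternatives below were also run on simulated counts. Among those not run on them were scaling by total counts, the other filters, the GC trend removal and the summed counts. The simulated counts held no trend on transcript length, so they cannot show how the tests handle the trend seen here. Alternatives were other scalings and filters, DESeq2 1.42.0, limma 3.58.1, a block for the replicate number, non-robust dispersions, leaving out each library in turn, removal of length or GC trends (loess of span 0.3 on log2 CPM, prior count 2) and counts summed over overlapping genes. Genes named with tests were the 12 highest per kb, the 12 of lowest p, 19 fixed by role, the 3 nearest below the filter, and the 3 of lowest p from each further list; other members are named for level, and the choice of Furin, Reck, Lrp1, Col4a1 and Cx3cl1 followed sight of their values. The members and lists were chosen with earlier results of these data known.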

Additional observations from a re-analysis of the deposited data

How the results depend on the processing

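The count of 0 called members held under every alternative run except 1: without GDF10 replicate 2 it was 1, Adam9, so that leaving out each library gave 0 to 1. The partner and substrate lists had 0 called genes except without vehicle replicate 1, where Cx3cl1 passed, and without GDF10 replicate 2, where Vcan, Lrp1 and Col4a1 passed, a range of 0 to 3. In each of these fits 1 group is a single library, so the other group alone gives the spread, which the lone library is assumed to share. The number of all genes called was 25, against 56 with DESeq2, 11 with limma-voom, 9 with non-robust dispersions, 13 with the length trend and 9 with the GC trend removed, and 27 to 224 with 1 library left out (27 and 44 without vehicle replicates 1 and 2, 112 and 224 without GDF10 replicates 1 and 2). With the replicate number as a block 23 genes and 0 members were called; same-numbered libraries deviated together at a correlation of 0.07 across genes, and the labels tie no numbers together. The 12 highest members per kb were chosen on the longest transcript, and 10 of them stayed among the 12 highest on union exon length. Of 27 named and tested members, 5 changed sign under an alternative, none past the threshold: Mmp14 (−0.0039 with the GC trend removed), Mmp13 (0.020 with the GC trend removed, −0.22 to 0.091 with 1 library left out), Mmp3 (−0.017 with limma-voom, −0.043 with the length trend removed, −0.38 to 0.34 with 1 library left out), Adamts5 (0.077 with the length trend removed) and Timp4 (0.20 when summed with Syn2, which shares exon bases with it). Syn2 had 56 and 46 counts with GDF10 and 59 and 21 with vehicle, above those of Timp4 in all 4 libraries. The cause of the sign changes was not tested. Leaving out a library moved the log2 fold change by over 1.5 times in 19 of the 27, among them Adam12 (−0.10 without GDF10 replicate 1, −0.42 without GDF10 replicate 2), and not in the other 8. Members under 1 CPM rest on few counts, which limits their intervals.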
